A study of Mus musculus with 24 samples.

Results

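The Krüppel-like factors (Klf) are transcription factors that bind GC-rich and CACCC sequences through zinc fingers at their carboxyl end. The 10 members described here, Klf2, Klf3, Klf4, Klf5, Klf6, Klf7, Klf9, Klf10, Klf13 and Klf16, were taken by name from a list, and the estimated counts of all their annotated transcripts were summed in each of 24 libraries. They are 10 of the 55177 genes that had a transcript in the tables, and they were chosen with earlier results of these data known. Each of the 10 passed the low-count filter at both culture ages, so all entered every test.

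Klf proteins share a DNA-binding domain and differ in the partners that their other parts recruit. Klf2, Klf4, Klf5, Klf6 and Klf7 are mostly described as activators that work with acetyltransferases, Klf3 as a repressor that recruits CtBP, and Klf9, Klf10, Klf13 and Klf16 as factors that bind the Sin3 corepressor. In neurons the family is best known for its effect on axon growth, where Klf4 and Klf9 restrain growth and Klf6 and Klf7 favour it.

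The libraries came from primary cortical neurons of mouse embryos at embryonic day 16.5, and the study concerned Smarcc2, a subunit of BAF chromatin remodelling complexes, and neuronal depolarization. All resting cultures were silenced overnight with 1 µM tetrodotoxin, a sodium channel blocker, and 100 µM D-AP5, an NMDA receptor blocker, and the same silencing preceded stimulation. Depolarized cultures received 50 mM KCl for 30 min. At 7 days in vitro (DIV7) there were 2 resting and 2 depolarized libraries of unmodified cultures with 0.1% DMSO, made from poly(A) RNA. At DIV18 the libraries were made from RNA depleted of ribosomal RNA. The DIV18 cultures carried a non-targeting CRISPR guide RNA (NT, 2 resting and 2 depolarized), or guides that knock out Smarcc2 (KO) together with an empty vector (3 and 3), wild-type Smarcc2 (WT, 2 and 3), the S586E substitution (3 resting only) or the S586A substitution (2 depolarized only). Guides act in a mixed primary culture, so KO denotes a population of cells and not a clone. The protocol treats the cortical tissue of 1 embryo as 1 replicate, and the labels do not tie a numbered library to an embryo, so p-values measure the spread between these libraries.

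The 4 DIV7 libraries held between 24536056 and 30135576 estimated counts and the 20 DIV18 libraries between 14510199 and 24024959. Smarcc2 levels followed the labels. Smarcc2 was at 237 to 265 library-size normalised counts (CPM, counts scaled to a fixed library total) in resting NT libraries. It was at 47.1 to 64.1 CPM in resting KO libraries with vector. Addback raised it unequally, to 756 to 816 CPM with WT and 1164 to 1276 CPM with S586E at rest. Under KCl it was at 737 to 1089 CPM with WT and 1303 to 1340 CPM with S586A. Neuronal markers were the highest of the cell type lists at both ages, with a summed level of 3900 to 3940 CPM over 7 genes in resting DIV7 libraries and 4950 to 4960 CPM in resting NT libraries. The 5 astrocyte markers summed to 227 to 259 CPM and 255 to 324 CPM in the same libraries. In bulk RNA, fewer cells of a type and less RNA per cell cannot be told apart.

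Levels are compared between genes in TPM, transcript levels per length scaled to a fixed total in each library. In resting DIV7 neurons the growth-promoting pair led, with Klf7 at 65.6 ± 3.01 TPM and Klf6 at 54.3 ± 0.126 TPM (SD, n = 2 for each). Klf13 (27.6 ± 2.38 TPM) and Klf10 (21.5 ± 0.72 TPM) came next, and Klf16 (20 ± 1.21 TPM) and Klf9 (18.6 ± 2.36 TPM) overlapped between libraries. Klf3 (8.60 ± 0.431 TPM) and Klf5 (6.77 ± 0.0558 TPM) were lower, and Klf4 (1.88 ± 0.360 TPM) and Klf2 (1.42 ± 0.178 TPM) were lowest. No other neighbours in this order overlapped. The 10 members summed to 224 to 229 TPM, of which Klf7 made up 29.0% and Klf6 24%.

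In resting NT neurons at DIV18 the order was different. Klf9, a target of thyroid hormone and glucocorticoid receptors, led at 68.6 ± 5.15 TPM (SD, n = 2) and made up 42.4% of the members' sum, against 8.23% at DIV7. Klf10 (27.3 ± 1.09 TPM), Klf13 (25 ± 1.34 TPM) and Klf7 (14.2 ± 1.16 TPM) followed, and then Klf3 (10.5 ± 2.10 TPM). Klf6 was at 5.40 ± 0.385 TPM (SD, n = 2), between Klf16 (6.96 ± 1.26 TPM) and Klf5 (2.57 ± 0.0699 TPM), and Klf4 was last at 0.230 ± 0.105 TPM. No neighbours in this order overlapped between the libraries. The other resting DIV18 groups also had Klf9 first and Klf2 and Klf4 last. Age and RNA selection changed together between the DIV7 and DIV18 libraries, so their parts in these differences of level cannot be told apart and no test was made.

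**Figure D1:**
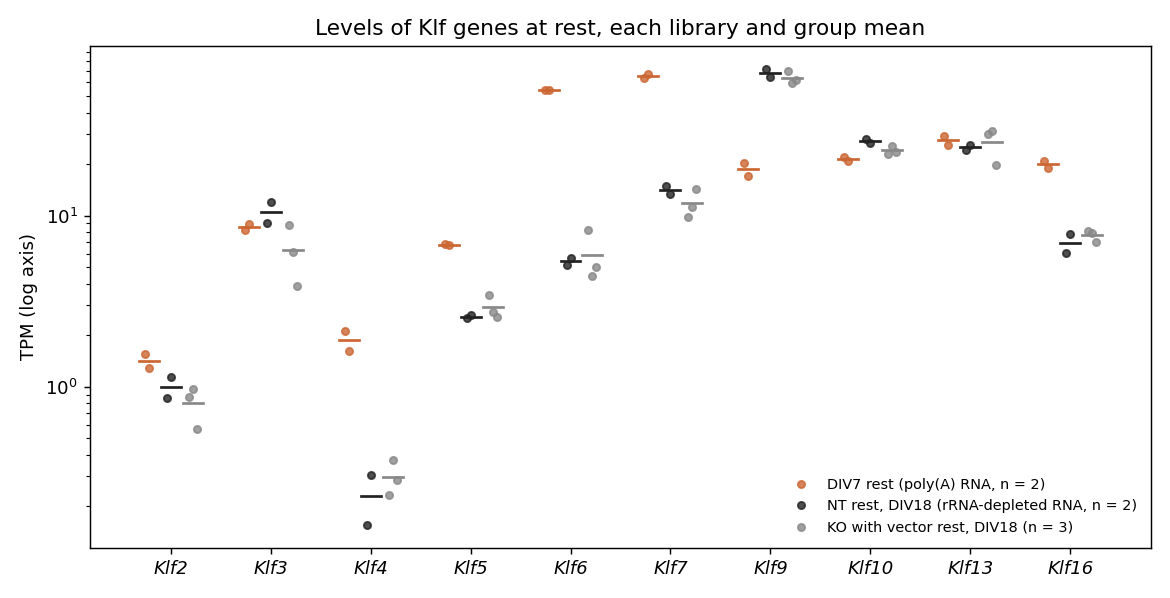
Levels of the 10 Klf genes at rest in TPM on a log axis, with a point for each library and a bar for each group mean, for DIV7 (n = 2), NT at DIV18 (n = 2) and KO with vector at DIV18 (n = 3). Klf6 and Klf7 are the highest members at DIV7 and Klf9 the highest at DIV18, while Klf2 and Klf4 are lowest in all 3 groups.

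Depolarization was examined first at DIV7, to ask which members respond within 30 min of KCl. Of the 10 members 5 were called at an adjusted p under 0.05, with 1 higher (Klf4) and 4 lower (Klf6, Klf7, Klf10 and Klf13), while 17.0% of the 19822 genes tested were called, 7.34% higher and 9.67% lower. DESeq2 also called 5 members, and 9.94% of its genes. Because the members were chosen with earlier results of these data known, the shares over all genes stand beside these counts as description only. The median log2 fold change of the members was -0.28, against -0.0014 over all genes tested. The adjusted p-values here and below are from edgeR's quasi-likelihood test with Benjamini-Hochberg adjustment over all genes, unless another tool is named.

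Klf4 (ENSMUSG00000003032.8; GRCm38, chromosome 4, 55527143 to 55532466, minus strand), one of the reprogramming factors for pluripotency, went from 2.28 and 2.62 CPM at rest to 32.3 and 35.1 CPM after KCl. Both depolarized libraries lay far above both resting ones. The log2 fold change was 3.79 (SE 0.115, 95% interval 3.51 to 4.06, adjusted p 6.24e-06), a 13.8-fold rise. On the per-length scale Klf4 moved from ninth among the members to the third, at 25.9 ± 2.81 TPM (SD, n = 2), and from 0.829% to 12.8% of their sum. The rise was in the main form Klf4-201, which has 5 exons and held 96.0% of the gene's estimated counts at rest and 94.8% after KCl. It was called in each of 9 alternative analyses, with log2 fold changes from 3.68 to 3.88. Klf4 is also expressed in endothelial cells, and the 6 endothelial markers summed to 3.71 to 4.03 CPM at rest and 4.34 to 5.88 CPM after KCl, without overlap. Of the 4 tested, 0 were called by edgeR, with a median log2 fold change of 0.40 and the highest value for Tek (1.05, adjusted p 0.122). The part of these cells in the rise of Klf4 was not tested.

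Klf2 (ENSMUSG00000055148.7; chromosome 8, 72319033 to 72321656, plus strand), which acts with Klf4 in endothelial cells, was at 1.44 and 1.21 CPM at rest and 0.777 and 0.984 CPM after KCl. Its resting libraries lay above the depolarized ones, but each library held only 23 to 41 counts. The log2 fold change of -0.59 (95% interval -1.27 to 0.091) did not pass (adjusted p 0.214), and the interval's upper end lies below the rise of Klf4.

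Klf6 (ENSMUSG00000000078.7; chromosome 13, 5861482 to 5870394, plus strand) fell from 94.0 and 94.3 CPM to 56.9 and 60.2 CPM. The groups were well separated, and the log2 fold change was -0.69 (SE 0.0534, adjusted p 0.000574). The form Klf6-203, annotated for nonsense-mediated decay, held 8.41% of the gene's counts at rest and 8.92% after KCl, with 197 to 225 and 117 to 181 estimated counts per library.

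Klf7 (ENSMUSG00000025959.13; chromosome 1, 64029447 to 64122282, minus strand), which acts in sensory neuron development, fell from 257 and 258 CPM to 198 and 192 CPM. The log2 fold change was -0.40 (SE 0.0415, adjusted p 0.00167), and the groups did not overlap. Klf6 and Klf7 were called in each of the 9 alternatives. Klf7 remained the highest member after KCl, at 49.8 TPM.

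Klf5 (ENSMUSG00000005148.8; chromosome 14, 99298691 to 99315036, plus strand), an activator best known from dividing epithelia, was at 12.1 and 12 CPM at rest and 10.4 and 9.66 CPM after KCl. The libraries did not overlap, but the log2 fold change of -0.27 did not pass (unadjusted p 0.0306, adjusted p 0.114, edgeR).

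The factors that bind Sin3 did not move as a block. Klf10 (ENSMUSG00000037465.10; chromosome 15, 38291463 to 38300706, minus strand), first described as an early gene of TGF-beta signalling, was at 26.6 and 19.1 CPM at rest and 14.1 and 12.9 CPM after KCl. The log2 fold change of -0.76 passed (SE 0.156, adjusted p 0.0181), but the resting libraries differed from each other by more than the gap between the groups. Without resting replicate 1 it was -0.51 (adjusted p 0.0614, edgeR), and with offsets for effective transcript length it was -0.30 (adjusted p 0.147). Its main form Klf10-201 held 94.9% of the gene's counts at rest and 89.6% after KCl, but 62.4% and 43.3% of its TPM, since short forms weigh more per length.

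Klf13 (ENSMUSG00000052040.10; chromosome 7, 63886351 to 63938915, minus strand) was at 92.9 and 85.2 CPM at rest and 71.6 and 73.6 CPM after KCl. The log2 fold change was -0.30 (SE 0.0594, adjusted p 0.0170). The call was lost with offsets for transcript length (adjusted p 0.122, edgeR), without resting replicate 1 (0.0980) or without depolarized replicate 1 (0.0604).

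Klf9 (ENSMUSG00000033863.2; chromosome 19, 23141226 to 23168134, plus strand) was at 49.1 and 41.5 CPM at rest and 46.2 and 50.3 CPM after KCl, with overlapping libraries (log2 fold change 0.087, 95% interval -0.13 to 0.30). Klf16 (ENSMUSG00000035397.8; chromosome 10, 80567124 to 80577321, minus strand) was at 29.2 and 26.9 CPM and then 27.9 and 27.0 CPM (-0.033, interval -0.21 to 0.15). The CtBP-dependent repressor Klf3 (ENSMUSG00000029178.14; chromosome 5, 64803388 to 64832901, plus strand) was at 15.8 and 16.5 CPM and then 15.5 and 16.3 CPM (-0.021, interval -0.23 to 0.18). These 3 genes overlapped between the states, and their intervals reach no further than 0.30 on the log2 scale in either direction. Klf3 and Klf7 each overlap an antisense gene, Gm20033 and Gm13748, and use of strand is not given in the sources used here. These partners reached at most 1.86 and 0.367 CPM in any library, far below Klf3 and Klf7.

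**Figure D2:**
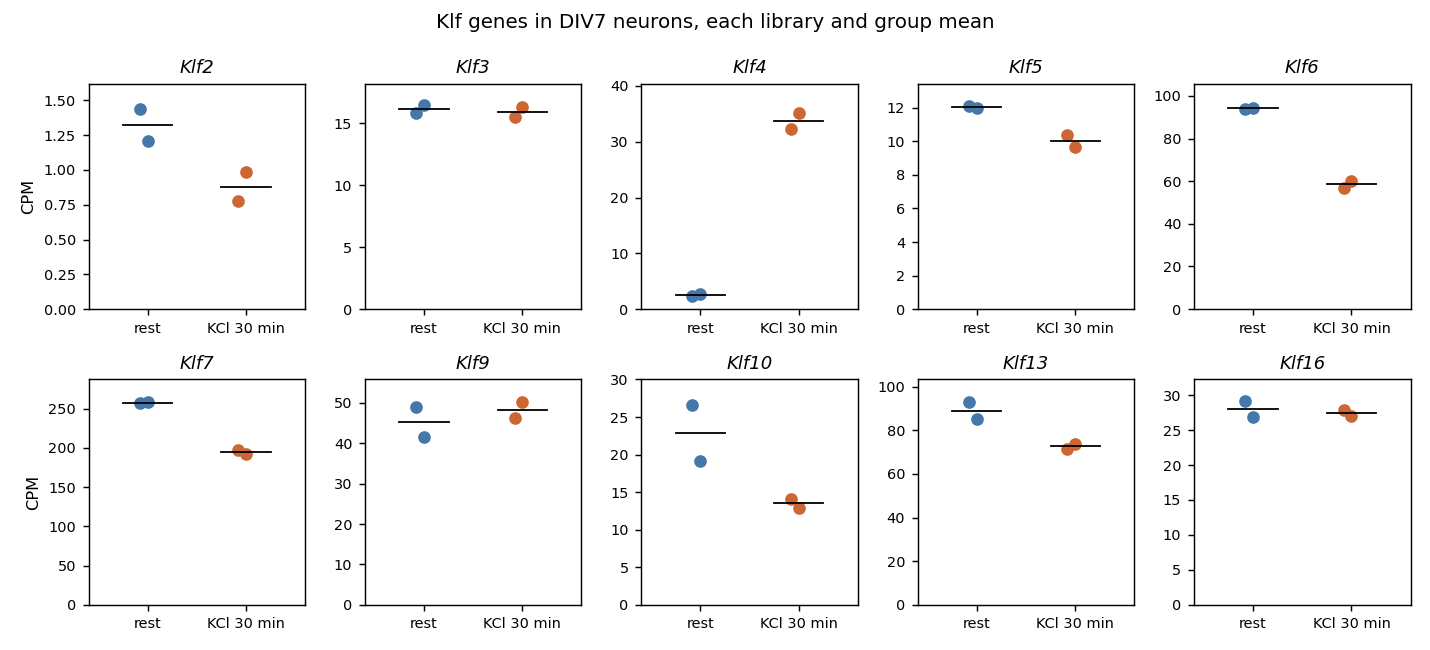
CPM of each Klf gene in the DIV7 libraries (points) with group means (lines), 2 resting and 2 depolarized, each panel on its own axis from 0. Klf4 goes from 2.28 and 2.62 to 32.3 and 35.1 CPM, Klf6, Klf7, Klf10 and Klf13 are lower after KCl, and Klf3, Klf9 and Klf16 overlap.

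The promoters of Klf4, Klf2 and Klf6 are shown because Klf4 rose, its relative Klf2 was not called, and Klf6 fell with separated libraries. They are from RefSeq on GRCm38.p6, 250 bases before to 50 after the start, 5′ to 3′ on the gene's strand, and lie at chr4:55532426-55532725 (minus), chr8:72318812-72319111 (plus) and chr13:5861239-5861538 (plus). Capitals mark the half-site of the cAMP response element, TGACG, or its reverse complement, and, in Klf2 only, also a match to the MEF2 site.
Klf4: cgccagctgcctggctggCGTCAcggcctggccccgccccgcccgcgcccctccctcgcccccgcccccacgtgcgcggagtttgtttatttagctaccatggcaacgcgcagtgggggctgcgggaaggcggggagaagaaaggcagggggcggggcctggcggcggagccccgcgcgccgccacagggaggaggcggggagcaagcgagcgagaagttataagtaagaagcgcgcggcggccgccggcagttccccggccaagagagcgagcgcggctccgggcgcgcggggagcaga
Klf2: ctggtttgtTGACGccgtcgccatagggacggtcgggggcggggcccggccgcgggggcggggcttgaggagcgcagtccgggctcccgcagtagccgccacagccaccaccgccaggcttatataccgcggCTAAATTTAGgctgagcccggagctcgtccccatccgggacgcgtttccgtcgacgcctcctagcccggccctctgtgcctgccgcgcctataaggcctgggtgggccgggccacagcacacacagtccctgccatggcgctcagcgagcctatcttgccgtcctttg
Klf6: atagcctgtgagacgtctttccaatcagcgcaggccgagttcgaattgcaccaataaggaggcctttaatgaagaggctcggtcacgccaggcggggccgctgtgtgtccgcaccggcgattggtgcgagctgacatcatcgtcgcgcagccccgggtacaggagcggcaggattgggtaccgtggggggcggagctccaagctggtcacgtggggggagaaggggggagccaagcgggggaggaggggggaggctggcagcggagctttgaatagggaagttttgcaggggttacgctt

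Klf4 had 1 half-site, whose first base is at position -232 from the start, and Klf2 had 1 at -241. Klf6 had none. Over all 32851 RefSeq promoters of this length 20.8% hold the half-site on either strand. The MEF2 match in Klf2 begins at -118, and 3.19% of promoters hold one. The SRF site, the CArG box, was found in none of the 7 members with a promoter sequence, and in 1.63% of all promoters. The GC box GGGCGG, a general Sp and Klf binding sequence, occurred 4 times in Klf4, 2 times in Klf2 and 1 time in Klf6, and is in 35.7% of promoters. Klf6 had 4 copies of CCAAT, which is in 37.4% of promoters, and Klf4 and Klf2 had none. A match describes letters in this window and not a bound site. The half-site was also found in Klf3, Klf9 and Klf13 and not in Klf7, so it was present in members that rose, fell and were not called.

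The rest of the family and its partners were read against the 17.0% of all genes called at DIV7, 7.34% higher and 9.67% lower. Of 6 tested genes among the other Klf members, Klf11 alone was called, and it fell from 26.0 to 27.0 CPM at rest to 11.6 to 11.8 CPM after KCl (log2 fold change -1.18, adjusted p 0.000329). Klf11 is the paralogue of Klf10 and also binds Sin3. Of 7 tested Sp factors, which recognise the same GC-rich sequences, only Sp1 was called and was lower (-0.79, adjusted p 0.00198, edgeR). Of 10 cofactors 1 was called, the acetyltransferase Ep300 (0.24, adjusted p 0.0182, edgeR).

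Among 10 genes of the pathways that feed Klf2 and Klf4 transcription, 3 were called higher and 1 lower. Over all genes tested at DIV7 7.34% were called higher and 9.67% lower. These were Srf (0.57, adjusted p 0.00142), Mef2a (0.21, adjusted p 0.0203), Mef2c (0.16, adjusted p 0.0274) and the SRF partner Elk1 (-0.45, adjusted p 0.00331). The upstream kinase genes of the ERK5 branch, Map2k5 and Mapk7, were not called. Of 8 genes described as targets of Klf factors, among them Gap43 and Cdkn1a, 0 were called by edgeR at this time. The 6 early-response reference genes Fos, Fosb, Npas4, Egr1, Arc and Nr4a1 were all called higher at DIV7, with log2 fold changes from 3.23 (Arc) to 8.01 (Fosb). Their median was 5.59, so the rise of Klf4 (3.79) lay between those of Arc and Egr1 (5.20).

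A few markers of other cells and of cell state were called beside these results, where 7.34% of all genes were called higher and 9.67% lower. At DIV7 the astrocyte markers Slc1a3 (-0.22, adjusted p 0.0320) and Gfap (-0.49, adjusted p 0.0473) were called lower, 2 of 5, and the summed level was 227 to 259 CPM at rest and 196 to 209 CPM after KCl. Of the 7 neuronal markers Map2 was higher (0.20) and Tubb3 lower (-0.53), with sums of 3900 to 3940 and 3870 to 4010 CPM. The proliferation gene Ube2c was higher (1.14, 1 of 4). The part of these cells in the falls of Klf6, Klf7, Klf10 and Klf13 was not tested.

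The same stimulus was then examined at DIV18. In NT cultures 0 of 10 members were called by edgeR, while 0.00955% of 20940 genes were. In KO cultures with vector 0 members were called (0.0716% of genes), and in KO cultures with WT 0 (0.043% of genes). The numbers of members at an unadjusted p under 0.05 were 1 (Klf16, -0.34 in NT), 0 and 1 (Klf13, -0.28 in WT), and DESeq2 also called 0 members in each, with 0.0872%, 0.307% and 0.138% of its genes.

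Klf4 was at 0.510 and 1.01 CPM in resting NT libraries and 1.18 and 0.800 CPM in depolarized ones, which overlapped. With vector it was at 0.808, 1.32 and 0.446 CPM at rest and 1.59, 1.78 and 0.847 CPM after KCl, and with WT at 1.19 and 1.57 CPM and then 2.59, 1.37 and 0.626 CPM. The states overlapped in each construct, but within each of the 3 same-numbered vector pairs Klf4 was higher after KCl. With the replicate number as a block the vector log2 fold change was 0.73 and did not pass (adjusted p 0.445, edgeR). Without the block the log2 fold changes were 0.39 (95% interval -0.92 to 1.71) in NT, 0.70 (-0.37 to 1.77) with vector and 0.15 (-0.97 to 1.28) with WT. These values rest on 7 to 60 counts per library, and changes within the intervals remain compatible with the data. All 3 upper ends lie below the DIV7 value of 3.79.

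Early-response genes were higher in every depolarized DIV18 library of these constructs. The 6 genes summed to 129 to 137 CPM in resting NT libraries and 370 to 786 CPM after KCl, to 99.0 to 109 and then 463 to 719 CPM with vector, and to 97.7 to 107 and then 335 to 1130 CPM with WT. At DIV7 they went from 46.7 to 47.8 CPM to 2570 to 2700 CPM. In NT 1 of the 6 was called (Fosb, 3.17, adjusted p 0.00463), with vector 5 and with WT 4.

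Klf6, Klf7 and Klf10, which fell at DIV7, were at log2 fold changes of 0.27, -0.13 and 0.0076 in NT, -0.13, -0.0031 and 0.13 with vector, and 0.29, 0.044 and -0.15 with WT. Klf13 was at -0.11, -0.23 and -0.28, with 95% intervals of -0.42 to 0.21, -0.49 to 0.024 and -0.57 to -0.00031. All of these intervals contain its DIV7 value of -0.30. Klf7 had 95% intervals of -0.35 to 0.082 in NT and -0.18 to 0.17 with vector, and Klf10 had -0.19 to 0.21 and -0.038 to 0.29. The lower ends for Klf10 lie above its DIV7 value of -0.76.

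**Figure D3:**
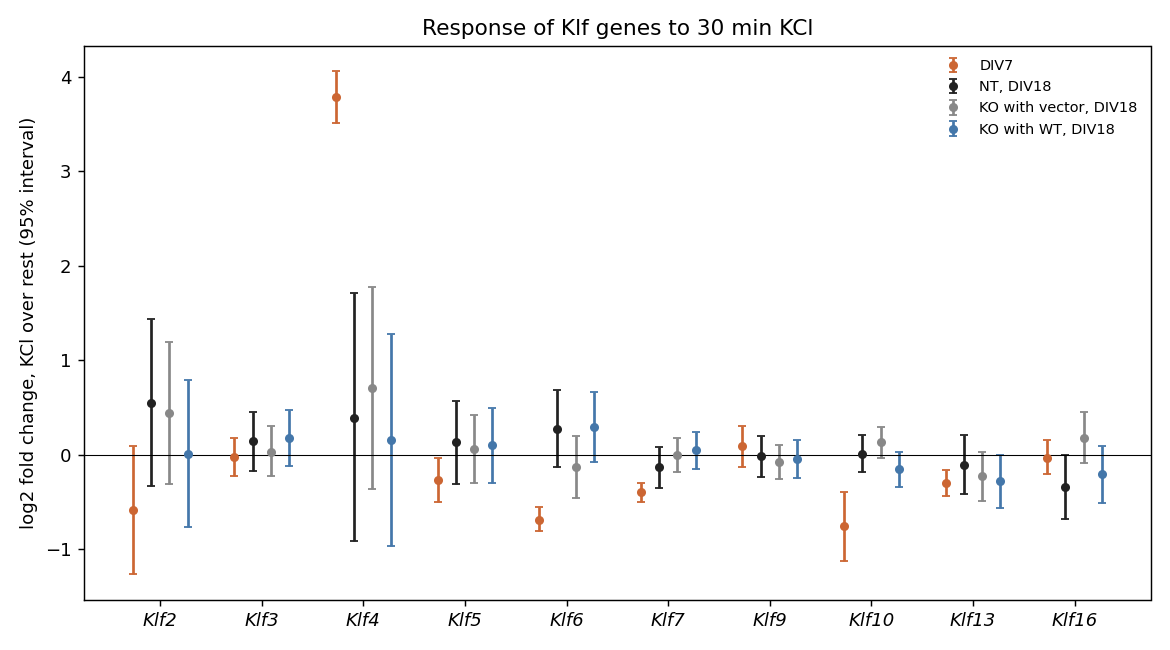
Log2 fold change of KCl over rest with its 95% interval for each Klf gene at DIV7 (orange) and at DIV18 in NT (black), KO with vector (grey) and KO with WT (blue), from edgeR. Klf4 stands at 3.79 at DIV7, and all 3 of its DIV18 intervals end below 2.

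The difference between the DIV7 and NT responses was tested in a joint fit of all 24 libraries, chosen after the data were seen. Of the 10 members 2 were called, 1 in each direction, against 1.82% of 22459 genes (0.49% higher and 1.33% lower). DESeq2 called 3 members and 3.64% of its genes. The response of Klf4 was larger at DIV7 by 3.40 on the log2 scale (SE 0.719, 95% interval 1.90 to 4.89, adjusted p 0.0131), and that of Klf10 was lower by 0.75 (-0.75, interval -1.11 to -0.40, adjusted p 0.0199). Klf6 differed by -0.94 but did not pass (adjusted p 0.0563, edgeR), and it did with DESeq2 (0.0173), the replicate block (0.0473), a fit restricted to the 4 groups (0.0229), no low-count filter (0.000160) and without NT depolarized replicate 1 (0.0398). The Klf4 call was lost with length offsets (3.10, adjusted p 0.159) and without DIV7 resting replicate 1 (3.31, 0.0716), DIV7 depolarized replicate 2 (3.33, 0.0513), NT resting replicate 2 (2.83, 0.213) or NT depolarized replicate 2 (3.15, 0.0715, edgeR). Klf10 was at -0.066 with length offsets (adjusted p 0.973, edgeR), and it also did not pass when only the 4 groups were fitted (0.0748) or in 6 of 8 fits that left out single libraries (0.0644 to 0.232). Age and RNA selection cannot be told apart here either.

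Between constructs, the responses themselves were not shown to differ. Between vector and NT cultures 0 of 10 members and 0.0% of genes were called by edgeR, and DESeq2 called 0 members and 0.00972% of its genes. Between WT and vector cultures 0 members and 0.0% of genes were called by either tool, and 1 member in each of these comparisons had an unadjusted p under 0.05. These had unadjusted p of 0.0198 for Klf16 in the first (log2 difference 0.52, 95% interval 0.093 to 0.95, adjusted p 0.501) and 0.0280 for Klf10 in the second (-0.28, adjusted p 1.0). For Klf4 the intervals were -1.40 to 2.01 and -2.09 to 1.00.

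KO cultures with vector were compared with NT in each state, to ask whether levels of members differ. The labels name no vector for NT, so Smarcc2 loss and the added vector cannot be told apart in this comparison. At rest 1 of 10 members was called (Klf3, lower), while 5.9% of 20940 genes were called, 2.13% higher and 3.77% lower. Under KCl 2 were called, Klf3 lower and Klf16 higher, while 2.67% of genes were called, 0.726% higher and 1.95% lower. DESeq2 called 1 and 2 members, and 9.97% and 5.33% of its genes. The 2 comparisons share no library, but they share 1 estimate of the spread.

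Klf3, which acts with CtBP to repress its targets, was at 28.7 and 28.5 CPM in resting NT libraries and 23.4, 18.9 and 19.2 CPM with vector. Under KCl it was at 29.7 and 33.4 CPM in NT and 25, 18.1 and 19.6 CPM with vector. Every KO library with vector lay below every NT library in both states. The log2 fold changes were -0.48 in resting libraries (SE 0.138, adjusted p 0.0453) and -0.59 in depolarized ones (SE 0.138, adjusted p 0.0289). Both calls were lost with length offsets (adjusted p 0.124 and 0.271), in fits without the other groups (0.113 and 0.0620), and without either NT library or vector replicate 2 or 3 (0.111 to 0.302 at rest, 0.0610 to 0.342 under KCl, edgeR). Klf3 was lower in all 11 alternatives of each comparison, by log2 fold changes between -0.67 and -0.43 at rest and between -0.74 and -0.50 after KCl.

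With WT added back Klf3 was at 23.3 and 19.7 CPM at rest and 22.3, 25.8 and 24.7 CPM under KCl. In each WT library Klf3 was below its level in every NT library of that state, which was not tested. It overlapped with vector in both states (0.069, 95% interval -0.22 to 0.36, and 0.21, interval -0.052 to 0.47). With S586E it was at 27.7, 25.1 and 23.4 CPM, and with S586A at 24.6 and 20.6 CPM. Against vector these were 0.31 (unadjusted p 0.0238, adjusted p 0.585, edgeR) and 0.11 (adjusted p 0.779).

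Klf16, a small GC-box repressor that binds Sin3, was at 14.8 and 16.9 CPM in depolarized NT libraries and 24.3, 28.1 and 28.9 CPM in those with vector. The groups were separated, with a log2 fold change of 0.77 (SE 0.148, 95% interval 0.46 to 1.08, adjusted p 0.0109). It was called with every other normalisation, filter, tool and offset tried (adjusted p at most 0.0225, edgeR or DESeq2), but not without NT depolarized replicate 1 (0.68, adjusted p 0.0929) or replicate 2 (0.87, 0.0938). At rest NT was at 17.4 and 22.8 CPM and vector at 24.7, 24.5 and 22.4 CPM. These overlapped, and the difference of 0.25 did not pass (adjusted p 0.350, edgeR). With WT added back Klf16 was at 20.4, 23.9 and 18.5 CPM under KCl, below each vector library and above each NT library, and the difference from vector of -0.37 had an unadjusted p of 0.00963 and an adjusted p of 0.999 (edgeR). With S586A it was at 25.9 and 25.4 CPM, within the range of vector (-0.077, interval -0.38 to 0.22). At rest Klf16 was at 24.3 and 24.1 CPM with WT, within the range of resting vector libraries (0.02, interval -0.28 to 0.32).

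The other 8 members were called in neither state of this comparison. Klf9, Klf10 and Klf7 had the narrowest 95% intervals at rest, -0.21 to 0.19, -0.25 to 0.12 and -0.32 to 0.068. Klf4 (-1.03 to 1.42) and Klf2 (-1.03 to 0.63) had the widest.

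**Figure D4:**
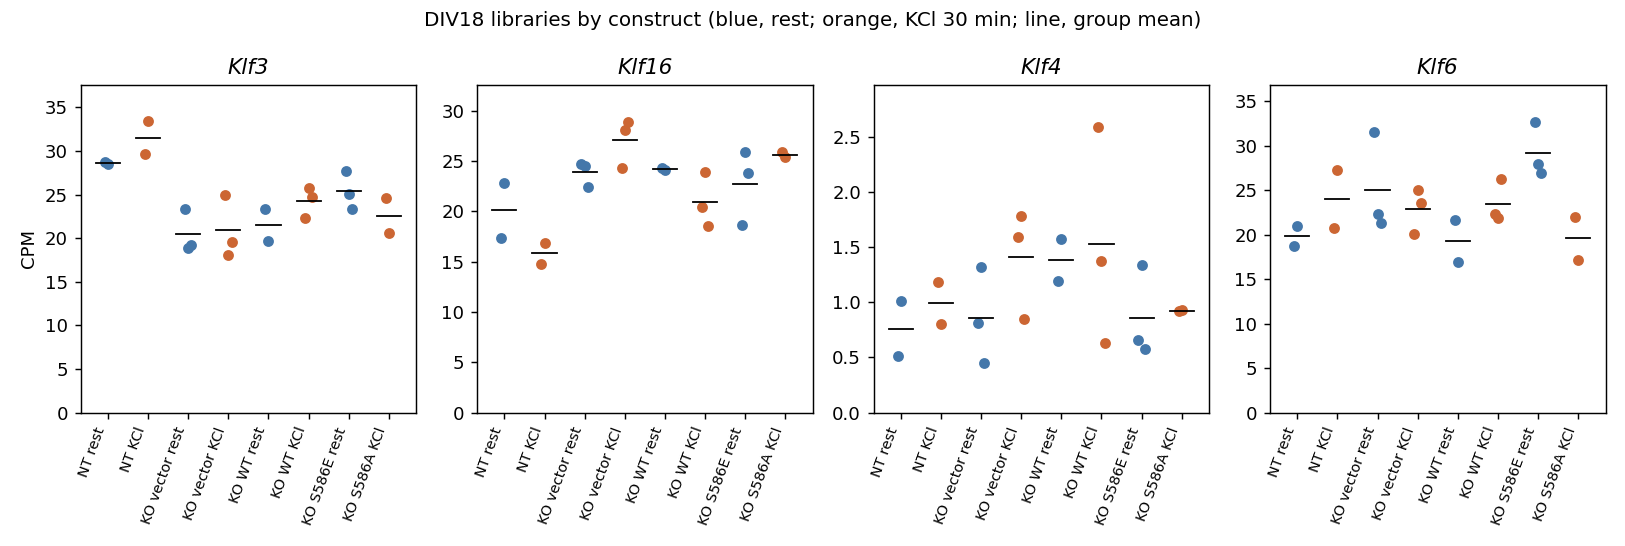
CPM of Klf3, Klf16, Klf4 and Klf6 in each DIV18 library (blue at rest, orange after KCl) with group means (lines), ordered by construct, each axis from 0. Klf3 is highest in the 4 NT libraries, Klf16 is lowest in the 2 depolarized NT libraries, and no Klf4 library exceeds 2.59 CPM.

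Markers of other cell types also differed between KO with vector and NT. In resting libraries the 6 oligodendrocyte lineage markers summed to 155 to 161 CPM in NT and 130 to 136 CPM with vector (3 of 6 called, all lower, with Sox10 at 0 counts in every resting vector library). The 7 mural and fibroblast markers summed to 18.6 to 27.9 and 36.7 to 50.9 CPM, but this sum was mostly Rgs5, which alone of 6 tested was called (higher, 1.65, 7.66 to 13.6 CPM in NT and 26.9 to 43.9 CPM with vector). The median log2 fold change of that list was -0.17 at rest and -0.69 under KCl, where 0 were called. Of 4 tested microglia markers Csf1r was called lower at rest (-1.31, adjusted p 0.0207, edgeR), with list sums of 26.0 to 28.1 and 21.5 to 27.0 CPM. Under KCl the 5 astrocyte markers summed to 196 to 505 CPM in NT and 91.7 to 149 CPM with vector (2 of 5 called, Aqp4 and S100b, both lower). Also lower under KCl were Pdgfra, 1 of 6 oligodendrocyte lineage markers (-3.33, adjusted p 0.0277, edgeR; list sums 119 to 174 and 108 to 128 CPM), and Snap25, 1 of 7 neuronal markers (-0.36, adjusted p 0.0467, edgeR; list sums 4890 to 5280 and 4320 to 4530 CPM). The 4 proliferation markers summed to 14.4 to 28.4 and 1.53 to 3.50 CPM at rest (3 of 4 called, all lower). Over all genes 3.77% were called lower at rest and 1.95% under KCl. The part of these cells in the Klf3 and Klf16 results was not tested.

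Other genes of the pathway were read against the 5.9% of all genes called at rest and the 2.67% called under KCl. At rest Sp1 (-0.52, adjusted p 0.0345), Mef2a (-0.34, adjusted p 0.0406) and the Klf target Cdkn1a (-0.66, adjusted p 0.0347) were lower, 1 of 8 Sp factors, 1 of 10 input genes and 1 of 8 targets. None of the 10 cofactors and 7 other Klf genes was called in edgeR at rest, and under KCl 0 genes of these lists were called.

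WT, S586E and S586A were compared within their state. Every S586E or S586A library held more Smarcc2 RNA than every WT library of its state. The substitution and the Smarcc2 level therefore cannot be told apart in comparisons with WT. WT against vector gave 0 of 10 members at rest (0.0143% of genes called) and 0 under KCl (0.00955%). S586E gave 0 against WT (0.0% of genes) and 0 against vector (0.0191%), and S586A gave 0 against WT (0.0%) and 0 against vector (0.00955%). These comparisons share libraries with each other and with the ones above. At an unadjusted p under 0.05 there were 1, 1, 2, 1, 0 and 0 members in this order, and DESeq2 called 0 except for S586E against WT, where it called 1. DESeq2 called 2.09%, 0.0146%, 3.06%, 0.64%, 0.0918% and 3.3% of its genes in these comparisons.

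That gene was Klf6. It was at 21.6 and 16.9 CPM in resting WT libraries and 32.7, 27.9 and 26.9 CPM with S586E, and every S586E library lay above both WT libraries. The log2 fold change of 0.60 (SE 0.178, 95% interval 0.23 to 0.97, unadjusted p 0.00333) did not pass in edgeR (adjusted p 0.179). It passed in DESeq2 (0.0407) and in edgeR with no low-count filter (0.00347). Klf7 was also higher with S586E in every library, at 94.9, 87.4 and 94.7 CPM against 76.2 and 75.5 CPM (0.28, unadjusted p 0.00748, adjusted p 0.227, edgeR). Against vector, at 31.5, 22.3 and 21.3 CPM, Klf6 with S586E overlapped (0.22, adjusted p 0.846). S586E was sequenced at rest only and S586A after KCl only, so they were not compared with each other.

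Over all 20 DIV18 libraries the members differed in how steady they were. Klf10 ran from 61.0 to 79.0 CPM (median 69.0, coefficient of variation 6.82%) and Klf9 from 288 to 361 CPM (median 315, 7.03%). Klf7 ran from 71.0 to 95.4 CPM (8.75%). Klf13 (14.1%), Klf5 (15.6%), Klf16 (16.7%), Klf3 (17.0%) and Klf6 (18.4%) varied more. Klf2, at 1.21 to 3.79 CPM (30.8%), and Klf4, at 0.446 to 2.59 CPM (47.1%), had the widest relative spread and the fewest counts.

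Levels of some members ran together across these 20 libraries, which share constructs, culture age and library type, and these values are descriptions only. The strongest positive pair was Klf2 and Klf4 (Pearson r 0.583, Spearman rho 0.627) and the strongest negative pair Klf3 and Klf16 (-0.705 and -0.617). Among 13163 genes with a mean of at least 1 CPM, those most like Klf13 were Ywhah (r 0.921), Gtf3c1 (0.905) and Sebox (0.893). Those most like Klf3 were Paqr8 (0.899), Map4 (0.854) and Add3 (0.846). For Klf4 they were Zfp330 (0.830), Smad1 (0.808) and Tada3 (0.802), and for Klf16 Zbtb43 (0.808), Zmynd10 (0.795) and Lgals3bp (0.792). With the 2 libraries farthest from the median left out, Klf13 with Ywhah was at 0.866, Klf3 with Paqr8 at 0.849, Klf4 with Zfp330 at 0.776 and Klf16 with Zbtb43 at 0.684.

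Most counts of each member were assigned to 1 transcript. The main form held 100% of counts for Klf2-201 and Klf16-201, which are the only forms annotated, and from 98.0% to 99.9% for Klf9-201 and Klf13-201 over the groups. Klf3-201 had the lowest share, 74.8% to 88.4% of counts over the groups. Shares of TPM were lower for some members, at 33.2% to 58.7% for Klf3-201, 43.3% to 86.3% for Klf10-201 and 54.4% to 91.3% for Klf7-202. Klf10-202, listed at 0 in both resting DIV7 libraries, held 11.1% of the Klf10 counts in resting NT libraries. Its mean share over the DIV18 groups ran from 1.37% (resting S586E) to 12.6% (depolarized vector). Between single resting vector libraries it ran from 8.93e-06% to 32.3%, so this assignment was unsteady. Klf6-203 held 1.92% of the Klf6 counts in resting NT libraries, against 8.41% in resting DIV7 libraries. The split between forms of a gene is the quantification program's estimate, and it was not tested.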

How the data were processed

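RNA sequencing of 24 libraries was analysed from the deposited transcript tables, which per the file headers have the layout of kallisto output. FastQC, cutadapt and kallisto are named in the submitters' processing notes; the annotation they used is not given in the sources used here. The estimated counts deposited by the authors are reads assigned to transcripts and need not be whole. The TPM values deposited by the authors are those counts divided by effective length and scaled to a fixed total. The effective lengths, also deposited, served as offsets in an alternative. Of 142552 transcripts, 141429 (99.21%) matched GENCODE M21 (GRCm38), and 98.86% of the 142552 matched with the same version. Unmatched ones held at most 0.467% of a library's counts.

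Counts were summed per gene and rounded. Main tests were two-sided quasi-likelihood tests of edgeR 4.0.16 (R 4.3.3) with TMM normalisation, filterByExpr and Benjamini-Hochberg adjustment over all genes. The 4 DIV7 libraries were fitted alone (19822 genes, common biological coefficient of variation 6.44%, 2 residual degrees of freedom) and the 20 DIV18 libraries together (20940 genes, 14.6%, 12). Calls were made at an adjusted p below 0.05 in 14 planned comparisons. CPM are TMM-normalised. No pair of replicate libraries within a group was a duplicate, and pairs across groups were not checked. Tests were checked on simulated counts, with planted changes larger than any fall called for a member, so falls of that size were not covered. The alternatives were DESeq2 1.42.0, size factors by median of ratios, effective-length offsets, a block for the replicate number, no low-count filter, fits restricted to the compared groups, and leaving out each library.

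The members and gene lists were chosen with earlier results of these data known. Beyond the 10 members, a listed gene is named where it was called or illustrates its list, and the 3 most correlated genes are named for 4 members; those 4 were picked after their values were seen. Same-numbered libraries of KO with vector deviated together in the 2 states (correlations over genes 0.124, 0.233 and 0.374), so numbers were taken to pair them, although resting replicate 1 correlated more with depolarized replicate 2 (0.283). At DIV7 same-numbered libraries also deviated together (0.352), and the main tests used no block at either age. Same-numbered libraries of NT (-0.251) and of KO with WT (-0.209) deviated apart, and the block used their numbers too. Motifs were searched on both strands; TGACG lies within the full cAMP response element, TGACG followed by TCA, which was found in none of the 7 members (of 10) with a sequence in the promoter table; position 0 is the first base of the transcript.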

Additional observations from a re-analysis of the deposited data

Results flagged for a closer look

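The responses of 2 of 10 members to KCl were called different between DIV7 and NT cultures at DIV18, against 1.82% of 22459 genes. The test was of the difference itself and was chosen after the data were seen. With effective-length offsets 0 of the 10 members were called. For Klf4, log2 fold changes of 3.79 at DIV7 and 0.39 in NT gave a difference of 3.40 (adjusted p 0.0131, edgeR, over all 14 alternatives 2.06e-08 to 0.213). For Klf10, -0.76 and 0.0076 gave -0.75 (adjusted p 0.0199, over all alternatives 0.00109 to 0.973). Culture age and RNA selection cannot be told apart in either.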

How the results depend on the processing

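The number of members called did not change with median-of-ratios size factors in any comparison, and with DESeq2, the replicate block and no low-count filter it changed only where stated here. Shares of all genes called are given for the main analysis and DESeq2 only, at DIV7 17.0% and 9.94%. Member counts under the other settings have no such share beside them and are not read as results about the members. With effective-length offsets 3 members were called at DIV7 (5 in the main analysis), 0 in KO with vector against NT at rest (1) and 1 under KCl (2), and 0 for the difference between the DIV7 and NT responses (2). Fits restricted to the compared groups gave 0 at rest and 1 under KCl for KO with vector against NT. For S586E against WT, DESeq2 and no low-count filter each called 1 member in place of 0. DESeq2, the replicate block and no low-count filter each called 3 members for the DIV7 and NT difference. Leaving out single libraries gave 3 to 5 members at DIV7, 0 to 1 for KO with vector against NT at rest, 0 to 2 under KCl and 0 to 3 for the DIV7 and NT difference.

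Signs turned for values near 0 that were not called. At DIV7 leaving out single libraries gave -0.057 to 0.017 for Klf3 (0.0087 without resting replicate 2), -0.03 to 0.21 for Klf9 and -0.093 to 0.027 for Klf16. Klf4 ran from -0.023 to 0.95 in NT, lowest without resting replicate 1, and from -0.46 (without depolarized replicate 1) to 0.52 with WT (-0.033 without resting replicate 1). The cause was not tested.

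With the replicate number as a block, the counts of members called were 5 at DIV7 and 1 and 2 for KO with vector against NT, as without it, and the block changed no other call than that of Klf6 in the DIV7 and NT difference (adjusted p 0.0473, edgeR). Same-numbered NT libraries deviated apart (correlation -0.251), and a block with the NT numbers crossed, chosen after the data were seen, called 0 members in the NT response. Counting protein-coding forms only, Klf6 was at 37.4 TPM in resting DIV7 and 4 TPM in resting NT libraries. With 2 or 3 libraries a group, and 7 to 60 counts of Klf4 per DIV18 library, changes of Klf4 within its DIV18 intervals remain compatible with the data.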
